A study of Mus musculus with 6 samples.

Results

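MYC and MYCN, their shared partner MAX, and MXD1, MXI1 and MNT, which compete with them for MAX, were followed in mouse blood progenitor cells given transforming growth factor β1 (TGF-β1). The 6 genes (Myc, Mycn, Max, Mxd1, Mxi1 and Mnt) were taken as the probes whose RefSeq accession carries 1 of these symbols, which gave 9 probes of 41174 on the array, and 6 of the 16535 gene symbols that could be assigned. Myc had 3 probes, Mycn had 2 and each other gene had 1. All 9 were well above background on all 6 arrays, and all 9 entered the test.

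The cells are the Lhx2 line, a mouse line with features of blood stem and progenitor cells that grows because the LIM-homeobox gene Lhx2 is expressed in it by force, and every sample in both groups carries this. All were kept in medium with stem cell factor and human interleukin 6 and had their serum replaced by albumin overnight. The control group of 3 samples was left untreated, and the treated group of 3 samples received TGF-β1 at 10 ng/ml for 2 h. RNA came from 3 harvests described as independent, and an untreated and a treated sample of the same replicate number form a pair, called a harvest here. It is 1 cell line, so p-values measure the spread between harvests of that line. In bulk RNA, fewer cells holding a transcript and less of it in each cell cannot be told apart.

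MYC and MYCN are basic helix-loop-helix leucine zipper proteins that bind DNA only as a dimer with MAX. The dimers favour the E-box CACGTG and recruit co-activators to genes of cell growth, ribosome production and cell division. MXD1, MXI1 and MNT pair with MAX too, bind the same E-boxes, and bring in the SIN3 co-repressors with their histone deacetylases. In blood, Myc and Mycn act together in the survival and division of stem and progenitor cells, and Myc acts in the balance between self-renewal and differentiation. In epithelial cells TGF-β is known to repress the MYC gene through a complex of SMAD3 with E2F4 or E2F5 and the pocket protein p107 (Rbl1), bound at a short element of its promoter.

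The stretch before the Mycn start is shown because Mycn had the lowest change of the 6 genes and because E2F factors are known to act at the MYCN promoter. It is the 250 bases upstream of the start in RefSeq, build GRCm38.p6, chr12:12941837-12942086, minus strand, read 5′ to 3′. Capitals mark matches to the E2F-type motif TTTGGCGC.
Mycn upstream: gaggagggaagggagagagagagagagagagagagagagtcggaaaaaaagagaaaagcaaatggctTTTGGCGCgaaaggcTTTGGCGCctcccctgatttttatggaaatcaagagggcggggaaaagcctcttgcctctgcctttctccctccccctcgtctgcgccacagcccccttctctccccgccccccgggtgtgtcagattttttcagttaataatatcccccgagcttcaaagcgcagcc
The 2 matches begin 183 and 168 bases before the start. Of 32851 promoter windows of the same length in the table, 0.417% hold this motif on either strand. The windows searched were those of Mycn, Max, Mxd1, Mxi1 and Mnt, 7 promoters of 5 genes, since Mxi1 has 3. The Myc promoter was not searched. The Mycn window was the only one of the 7 with a match. The E-box CACGTG, present in 6.02% of all windows, occurred in the Mnt window alone, 123 bases before its start. The SMAD-binding letters CAGAC, present in 42.2% of all windows, occurred in the windows of Mycn and Max (2 matches). They also occurred for Mxi1, though not in all 3 of its windows, and not in the windows of Mxd1 and Mnt. The letters GGCGGGAA, the E2F-like part of the TGF-β element of the human MYC promoter, are in 1.86% of all windows and in none of the 7. The motifs were searched on both strands and no motif contains another. A match describes the letters and not binding.

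Levels are given as log2 of the background-subtracted signal relative to the 75th percentile of the same array, so a level of 0 sits at that percentile, and levels of different probes cannot be set against each other. A change is the treated minus the untreated level, with a standard error (SE) from limma, and adjusted p-values are Benjamini-Hochberg values over all 36345 probes tested, with a threshold of 0.05. Without pairing, 87 probes passed (0.239%), and 11 of them were lower after TGF-β1 (0.0303%). That count was between 16 and 30 with any 1 of the 6 arrays left out. With the harvest as a block in limma, 226 probes passed (0.622%), 42 of them lower (0.116%). Against these shares, 0 of the 9 probes of the network passed without the block, and 1 of 9, a Mycn probe, passed with it. The groups did not overlap, with all 3 treated arrays lower, for 5.18% of all probes, and with all 3 higher for 5.38%. Among the 9 probes this held for 3 on the lower side (Mycn probe 1, Myc probes 1 and 3) and for 0 on the higher side.

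**Figure D1:**
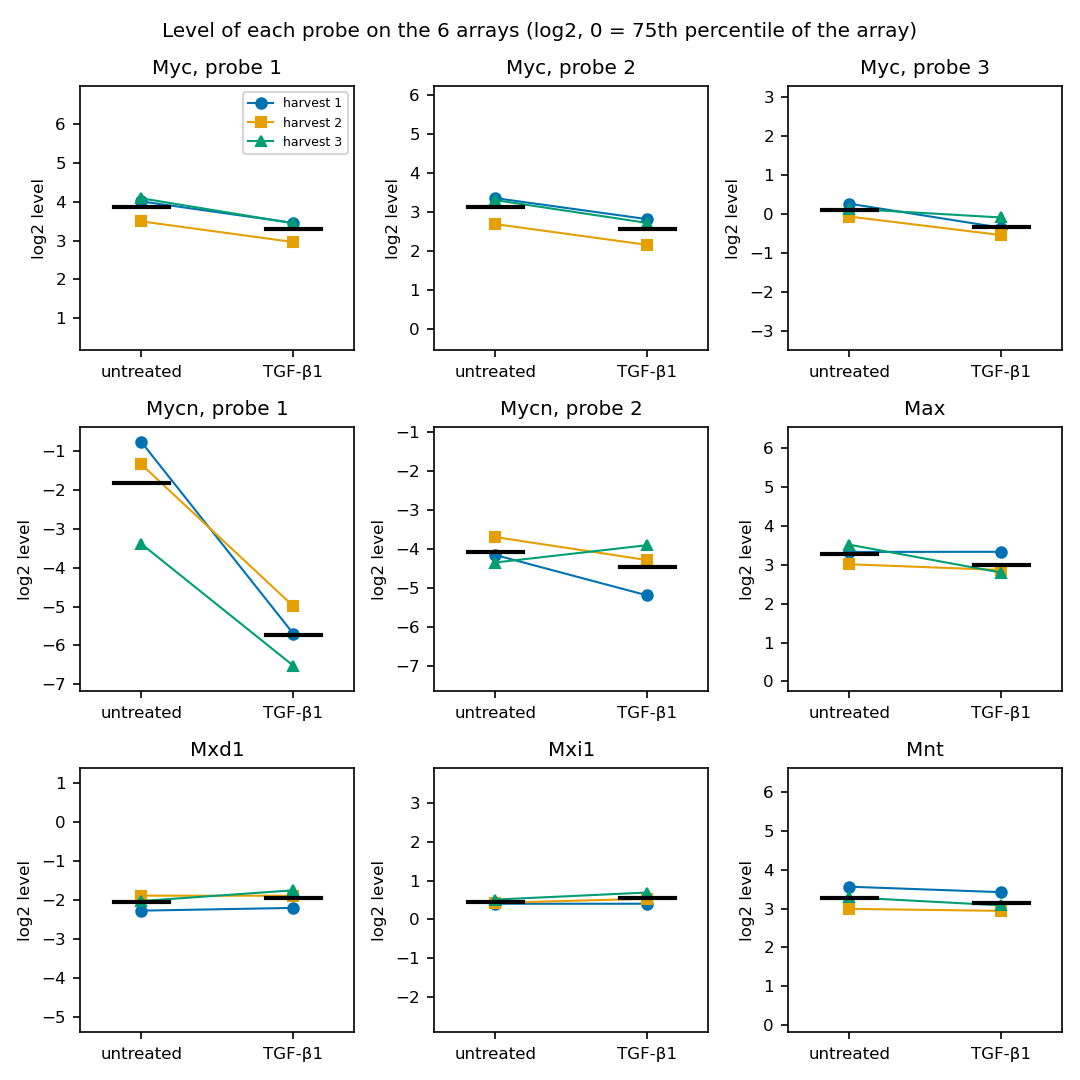
Level of each of the 9 probes on the 6 arrays (y axis, log2 relative to the array's 75th percentile, the same span of levels in each panel), untreated on the left and TGF-β1 on the right, with a line joining the 2 arrays of a harvest and a black bar at the group mean. Mycn probe 1 falls steeply in all 3 harvests, the Myc lines slope down in parallel, and the lines of Mxd1, Mxi1 and Mnt are close to flat.

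The genes listed as a check of the TGF-β response were higher in the treated cells. This list was chosen with earlier results of these data known, so its direction is not independent evidence. All 7 genes, the inhibitory SMADs, the SKI co-repressors and the ID genes, had positive changes in all 3 harvests. In limma 5 of 7 passed both with and without the block. Of all 15634 gene symbols tested, 42 passed as higher without the block and 108 with it. Smad7, an inhibitory SMAD, rose by 3.56 (SE 0.15, adjusted p = 0.00107), and Skil, a SMAD co-repressor, by 3.46 (SE 0.12, adjusted p = 0.000787). Id3 rose by 3.39, Ski by 2.93 and Smad6 by 2.76. The median of the list was 2.93, against -0.026 for the 15634 gene symbols tested. Id1 (1.14) and Id2 (0.91) did not pass.

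Mycn, the MYC-family member known for its role in the nervous system and in early blood cells, was lower after TGF-β1 on probe 1, with a mean level of -1.83 ± 1.38 (SD, n = 3) in untreated cells and -5.73 ± 0.77 (SD, n = 3) in treated cells. In the untreated cells its level was -0.76 in harvest 1, -1.34 in harvest 2 and -3.39 in harvest 3. In the treated cells it was -5.69, -4.99 and -6.52 in the same order. Each treated array lay below all untreated arrays, and harvest 3 was the lowest of its group both times. In background-subtracted signal, the untreated arrays read 530.6, 395.6 and 75.98 units and the treated arrays 17.06, 31.74 and 11.25 units. The untreated signals thus spanned a 6.15-fold range after scaling, wider than the 2.89-fold range of the treated ones.

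The change of Mycn probe 1 was -4.93, -3.65 and -3.13 in harvests 1, 2 and 3. The mean change was -3.90 (SE 0.72, 95% interval -5.62 to -2.18), a 14.9-fold lower level (95% interval 4.53 to 49.3). It was the second lowest change among all 36345 probes and the lowest among the 15634 gene symbols tested, each taken by 1 probe. It did not pass limma without the block (adjusted p = 0.15). With the harvest as a block its SE was 0.36 (95% interval -4.84 to -2.96) and it passed (adjusted p = 0.0388). With the block and without harvest 1 or harvest 2 it also passed (adjusted p = 0.0297 and 0.0451 in limma), and without harvest 3 it did not (-4.29, adjusted p = 0.0591).

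The size of the Mycn change rests on dim treated signals. On probe 1 the median spot signal before subtraction was 17, 18 and 4.41 times the local background in untreated harvests 1, 2 and 3, and 1.65, 2.28 and 1.54 times in the treated ones. The treated arrays lay 1.38, 1.98 and 0.73 log2 units above the lowest signal that counted as detected on the same array, so they are measured values and not bounds. With normexp background correction, which adds a fixed offset to every signal, the change was -2.10, and with the authors' deposited log2 values, which follow the spot signal without subtraction, it was -2.60. The direction was the same in all 22 alternative settings, from -4.68 to -2.10, and the test was passed in 4 of the 20 that had a test, all of them with the harvest as a block.

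Mycn probe 2, a separate probe for the same gene, was dim on all 6 arrays and could not have registered a fall as large as that of probe 1. Its untreated levels lay only 2.85, 3.32 and 2.18 log2 units above the lowest detected signal, with spot signals of 3.03, 4.76 and 3.12 times the local background. Its treated levels still lay 1.88, 2.68 and 3.35 units above that signal, so probe 2 did not use up the range it had. These untreated levels were -4.15, -3.69 and -4.35 in harvests 1, 2 and 3, and its treated levels were -5.19, -4.28 and -3.90. The groups overlapped, and the treated array was the lower of its pair in harvests 1 and 2 and the higher in harvest 3. The change was -0.40 (SE 0.35, 95% interval -1.24 to 0.45, adjusted p = 1 in limma; -1.04, -0.59 and 0.45 by harvest). It ran from -0.94 on slide 1 to -0.029 without treated replicate 1. The change of probe 1 minus that of probe 2 was -3.89, -3.05 and -3.58 log2 units in the 3 harvests, a mean of -3.51, taken against a probe with only that narrow range below its untreated level. An exact two-sided permutation test gave p = 0.1, the smallest that 3 against 3 arrays allow, and 0.3 after adjustment over the 3 probe pairs compared, a comparison chosen after the values were seen. The call for Mycn thus rests on 1 probe of 2, probe 2 neither repeats it nor could have measured it in full, and the position of each probe on the transcript is not used here.

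**Figure D2:**
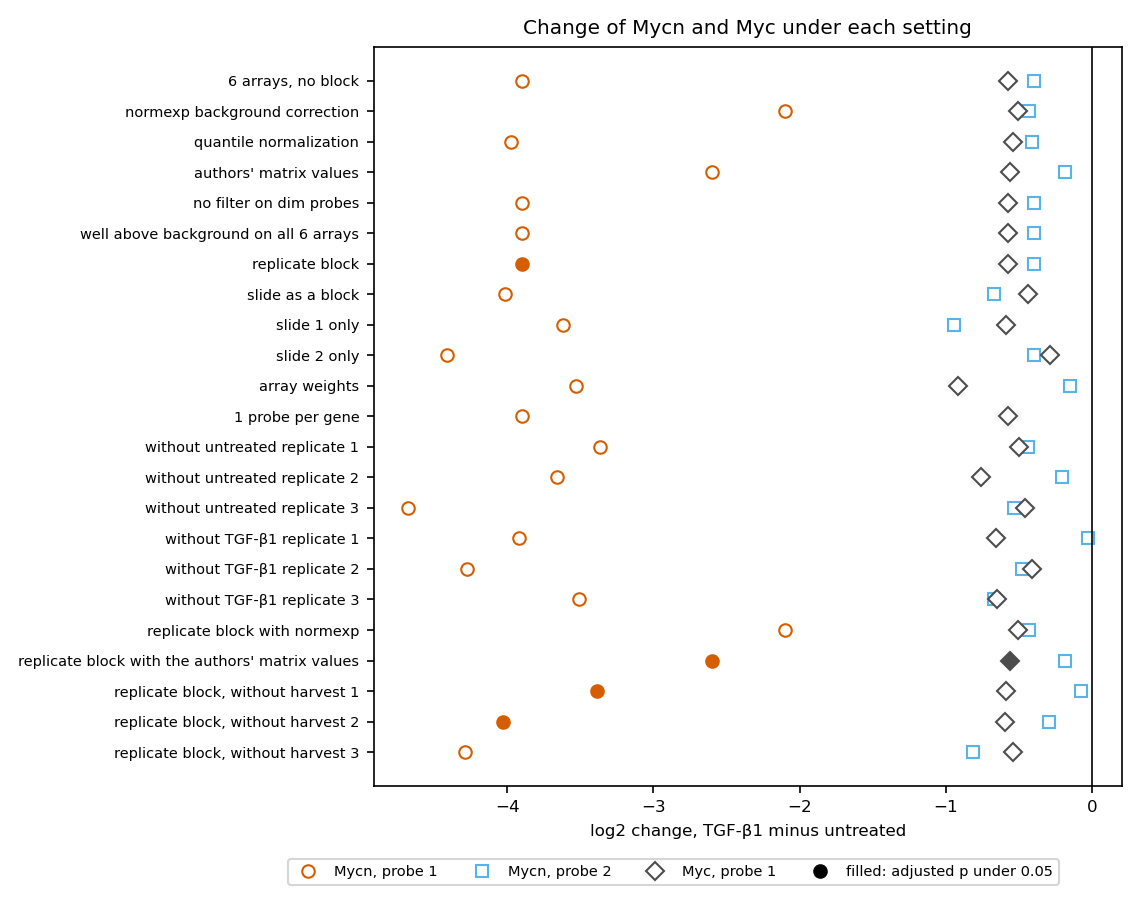
Change of Mycn probes 1 and 2 and Myc probe 1 (x axis, log2, TGF-β1 minus untreated) under each way of processing the arrays (y axis), with filled symbols where the adjusted p is under 0.05. Mycn probe 1 lies between -4.68 and -2.10 throughout and apart from probe 2, and its filled symbols all belong to fits with the replicate block. Myc probe 1 lies between -0.92 and -0.29.

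Myc, the broadly expressed founder of the family, had lower values on all 3 of its probes and in all 3 harvests, by far less than Mycn probe 1, and none of the 3 passed the test. Myc probe 1 had levels of 4.01, 3.49 and 4.09 in untreated harvests 1, 2 and 3. Its treated levels were 3.45, 2.96 and 3.45. All treated arrays lay below all untreated arrays, by a narrow margin, since untreated harvest 2 was nearly as low as treated harvests 1 and 3. Within a harvest the change was -0.55, -0.53 and -0.64, so the harvests differed less in their change than in their level.

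The mean change of Myc probe 1 was -0.58 (SE 0.22, 95% interval -1.11 to -0.04), 1.49-fold lower (95% interval 1.03 to 2.16), with an adjusted p of 0.787 in limma. With the harvest as a block the SE was 0.10 and the 95% interval -0.84 to -0.31, and the adjusted p was 0.13. Over the 22 alternative settings the change ran from -0.92 with array weights to -0.29 among the arrays of slide 2. It passed in 1 of 20 tested, the authors' deposited log2 values with the block (-0.56, adjusted p = 0.0262).

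Probe 1 of Myc is printed 10 times on the array, which shows how closely the spots of an array repeat. The SD between the 10 spots of an array was between 0.0587 and 0.118, below the change in every harvest. Each of the 10 positions was lower on the treated array in each of the 3 harvests, with changes from -0.64 to -0.45 in harvest 1, from -0.73 to -0.46 in harvest 2 and from -0.85 to -0.42 in harvest 3. The spots are repeat measurements of 1 sample and add nothing to n.

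**Figure D3:**
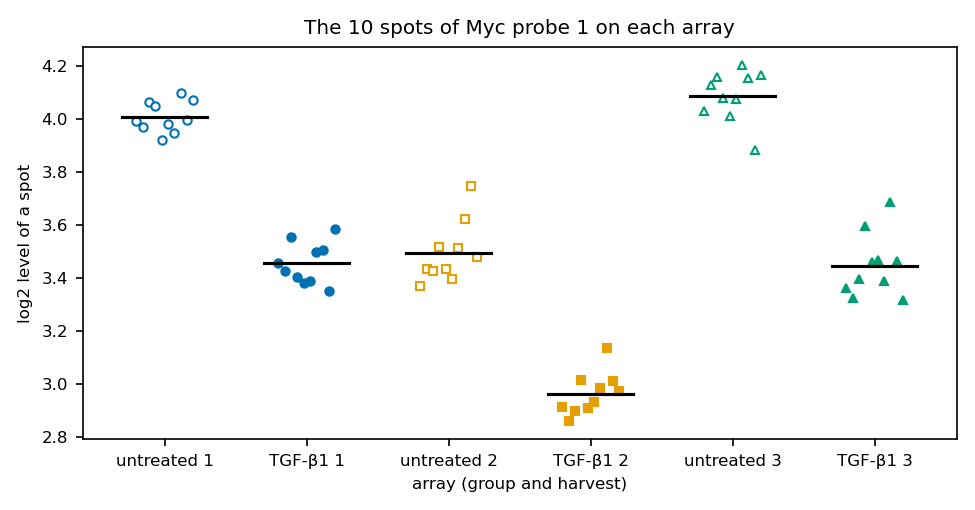
Level of the 10 spots of Myc probe 1 on each array (y axis, log2 relative to the array's 75th percentile), with open symbols for untreated and filled symbols for TGF-β1 arrays, 1 shape for each harvest, and a black bar at the mean. Within each harvest the treated spots sit below the untreated spots, while treated harvests 1 and 3 sit at about the level of untreated harvest 2.

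Myc probe 2 had untreated levels of 3.36, 2.69 and 3.31 and treated levels of 2.82, 2.16 and 2.72 in harvests 1, 2 and 3. The groups overlapped, because untreated harvest 2 lay below treated harvests 1 and 3, though within each harvest the difference was nearly the same (-0.54, -0.53 and -0.59). Its change was -0.55 (SE 0.26, adjusted p = 0.952 in limma). Myc probe 3 had untreated levels of 0.27, -0.06 and 0.14 and treated levels of -0.35, -0.54 and -0.09. Here the groups did not overlap, and the change of -0.44 (SE 0.17, adjusted p = 0.78) was made up of -0.62, -0.48 and -0.23. Probe 3 passed with the authors' deposited log2 values and the block (-0.47, adjusted p = 0.046), and probe 2 passed in no setting. The change of probe 1 differed from that of probe 2 by -0.022 (exact two-sided permutation p = 0.8) and from that of probe 3 by -0.13 (p = 0.5), in tests whose smallest possible p is 0.1. Probes 2 and 3 were not compared.

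Max, the partner that every member of the network needs, had untreated levels of 3.33, 3.02 and 3.52 and treated levels of 3.34, 2.87 and 2.80 in harvests 1, 2 and 3. The groups overlapped, and harvest 3 carried most of the difference, with changes of 0.0034, -0.15 and -0.72. The mean change was -0.29 (SE 0.21, adjusted p = 1 in limma) with a 95% interval of -0.79 to 0.21, which includes the change of Myc probe 1 as well as 0. With the block and without harvest 3 the value was -0.072.

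The antagonists showed no change that passed. Mxd1, a MAX partner that rises as blood cells mature, had untreated levels of -2.27, -1.89 and -2.03 and treated levels of -2.20, -1.89 and -1.75. Its change was 0.11 (SE 0.18, 95% interval -0.31 to 0.54). Mxi1, a close relative of Mxd1, had untreated levels of 0.40, 0.43 and 0.51 and treated levels of 0.40, 0.53 and 0.69, a change of 0.096 (SE 0.13, 95% interval -0.22 to 0.42). For both genes the groups overlapped, and the highest level was that of treated harvest 3. Mnt, the antagonist expressed alongside MYC in dividing cells, had untreated levels of 3.56, 2.99 and 3.29 and treated levels of 3.42, 2.94 and 3.08. Its change was -0.13 (SE 0.20, 95% interval -0.62 to 0.36), below 0 in each harvest, but 0.0078 with the slide as a block, so its direction depended on the setting. The adjusted p of all 3 was 1 in limma. All 3 intervals lie above the change of Mycn probe 1, and the interval of Mnt includes that of Myc probe 1.

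**Figure D4:**
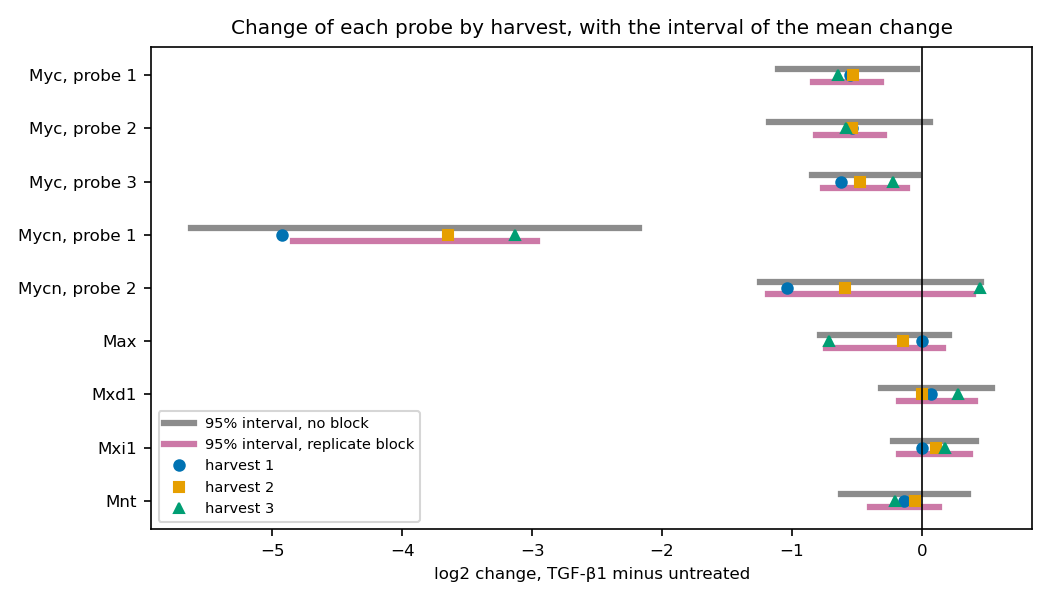
Change of each probe (x axis, log2, TGF-β1 minus untreated) in each of the 3 harvests, with the 95% interval of the mean change without the block in grey and with the replicate block in pink. Both intervals lie below 0 for Mycn probe 1 and for Myc probes 1 and 3, only the interval with the block does for Myc probe 2, and all other intervals include 0.

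The wider MAX and MLX network and its co-repressors had values in both directions, and 0 of the 11 genes tested of 13 listed passed with or without the block. Their median change was -0.085, with 8 negative and 3 positive values (72.7% negative, against 56.2% of all gene symbols tested). Mycl, the third MYC gene, had a change of -0.085 (SE 0.22). Sin3b, a SIN3 scaffold that MXD proteins recruit, had the lowest value, -1.72 (SE 0.66, adjusted p = 0.773 in limma), with -0.83, -2.57 and -1.75 by harvest. Its paralog Sin3a had -0.037 (SE 0.13). Mlx, the MAX-like partner of glucose-sensing factors, had -0.26, and Mxd4, a further antagonist, had 0.18, positive in each harvest.

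Of 23 tested genes for MYC co-activators and for control of MYC protein stability, from 26 listed, 0 passed, with 10 positive and 13 negative values and a median of -0.026. Bin1, a MYC-binding protein, had the highest value, 0.61 (SE 0.20, adjusted p = 0.587 in limma), and Fbxo32, an F-box protein that can mark MYC for degradation, had 0.51 (SE 0.21, adjusted p = 0.829). Both were positive in each harvest. The lowest values were small, -0.23 for Ppp2r5a, a phosphatase subunit that acts on MYC, and -0.23 for the acetyltransferase gene Kat2a.

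Factors known to act on the Myc and Mycn genes gave 30 tested of 32 listed, with 0 passing, 13 positive and 17 negative values, and a median of -0.017. Among the proteins of the repressor complex described above, E2f5 had -0.40 (SE 0.13, adjusted p = 0.594 in limma), with -0.38, -0.41 and -0.41 by harvest. E2f4 had 0.34 (SE 0.17), Rbl1 -0.12 (SE 0.18) and Smad3 -0.015 (SE 0.21). Of the rest, Notch1, a receptor that activates Myc in lymphoid cells, had 0.70 (SE 0.27), and E2f2, an activator E2F that is also listed as a MYC target, had 0.67 (SE 0.43). Prdm1, a repressor of Myc in plasma cells, had -0.53 (SE 0.27), with a positive value in harvest 3. Only the RNA of these factors was measured, and SMAD and E2F activity is largely set on the protein.

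Genes that MYC proteins are known to activate leaned to negative values, and 0 of 40 tested of 42 listed passed. Of these 40, 33 were negative and 7 positive (82.5% negative, against 56.2% of all gene symbols), and 17 were lower in all 3 harvests (42.5%, against 23.3%). The shift was small, with a median of -0.10 against -0.026. With the slide as a block it was -0.013, where the median of all probes was -0.055, and with normexp it was -0.026, where that of all probes was -0.17. The list's own median was below 0 in all 23 alternative settings. Without the block the median of all probes was -0.0087, so relative to all probes the lean was downward there and upward in these 2 settings. It was also upward within slide 1 (-0.018 against -0.065), within slide 2 (-0.030 against -0.040) and with normexp and the block together. In the other settings with both medians it was downward or level. Its direction relative to all probes thus depended on the processing. The median of gene symbols alone is given for the fit without the block only. A list of MYC and ribosome genes was already known to lean this way on these arrays, so its direction is not independent evidence. Polr1b, a subunit of RNA polymerase I, had -0.40 (SE 0.25), and Hk2, a glycolytic hexokinase, had -0.40 (SE 0.21). The textbook targets Odc1, the first enzyme of polyamine synthesis, and Ncl, nucleolin, had -0.13 (SE 0.22) and -0.017 (SE 0.17). On the positive side stood E2f2, given above, and Cdc25a, a cell-cycle phosphatase, with 0.28 (SE 0.23).

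Genes that MYC proteins are known to repress split almost evenly by sign, with 9 positive and 10 negative values. These were 19 tested of 20 listed, with a median of -0.048. In all 3 harvests 8 were lower (42.1%, against 23.3% of all gene symbols) and 4 were higher (21.1%, against 12.3%). The share lower in all 3 was close to the 42.5% of the activated list, where 2.5% were higher in all 3. In limma 1 of the 19 passed without the block and 1 with it, on the probe used for each gene, and both were lower. Of all 15634 gene symbols tested, 7 passed as lower and 42 as higher without the block, and 23 and 108 with it. Thbs1, the matrix protein thrombospondin-1, fell by 1.30 (SE 0.15, adjusted p = 0.0434) from a level of -0.56 ± 0.14 (SD, n = 3) to -1.86 ± 0.18 (SD, n = 3), and had an adjusted p of 0.0569 with the block. Another Thbs1 probe had -1.21 and passed in limma without the block and with it (adjusted p = 0.0374 and 0.0485). A further Thbs1 probe had -1.07 and passed in neither fit (adjusted p = 0.128 and 0.1 in limma), so the call depended on the probe. Cebpa, a driver of granulocyte differentiation, was at 2.92 ± 0.32 and 1.83 ± 0.19 (SD, n = 3), a change of -1.09 (SE 0.20, adjusted p = 0.15 without the block and 0.0453 with it). The other Cebpa probe had -0.96 and passed in neither fit (adjusted p = 0.237 without the block and 0.0515 with it in limma). Gas1, a growth-arrest gene, had -1.29 (SE 1.51). The stress-response genes of the Gadd45 family differed in direction, with 1.31 (SE 0.44) for Gadd45g, 0.58 (SE 0.16) for Gadd45b and -0.52 (SE 0.16) for Gadd45a, none past the threshold. The cell-cycle inhibitor genes Cdkn1a and Cdkn2b, which MYC is known to hold down, had 0.50 (SE 0.23) and 0.14 (SE 0.19).

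**Figure D5:**
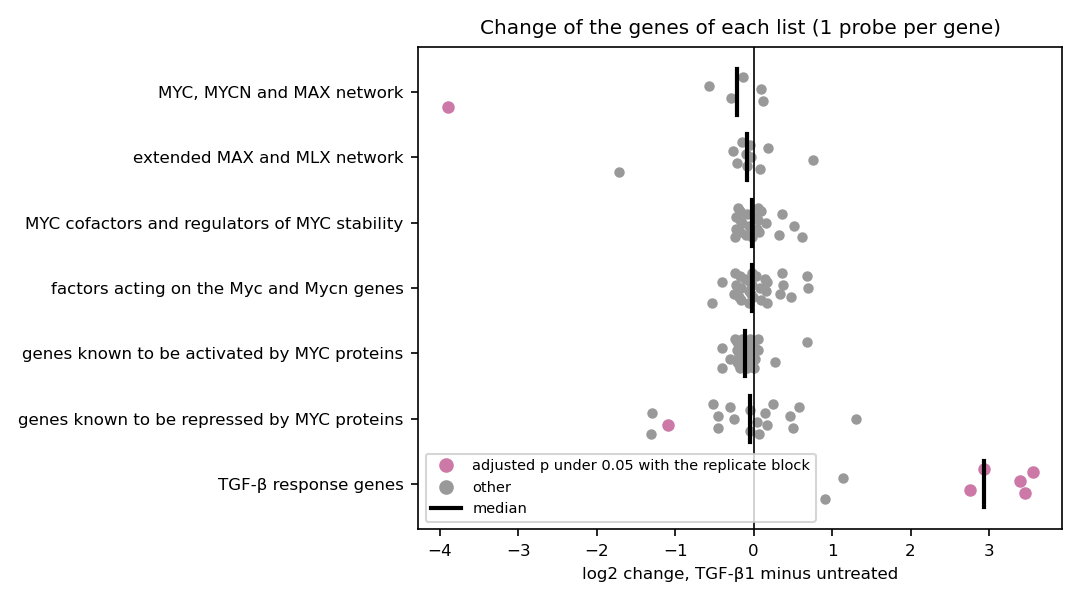
Change of every tested gene of each list (x axis, log2, TGF-β1 minus untreated, 1 probe per gene; vertical scatter within a list carries no meaning), with pink points for an adjusted p under 0.05 with the replicate block and a black bar at the list's median. Mycn stands alone at -3.90 in the top row, the medians of the 5 MYC-related lists below it lie between -0.10 and -0.017, and the TGF-β response genes lie at 0.91 and above.

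The genes whose profile over the 6 arrays was most like that of Mycn probe 1, by the root mean square difference of centred log2 levels, were Gem (0.899), Slc2a3 (1.27), Ahr (1.35), Meis1 (1.41) and Rgs18 (1.42). Gem, a small GTPase, came closest and had a change of -3.84 (adjusted p = 0.0729 in limma and 0.0938 with the block). The other 4 had changes between -1.61 and -1.41. Of these 4, Rgs18, which dampens G-protein signals in platelets and their precursors, passed with an adjusted p of 0.0259 without the block and 0.0256 with it. Meis1, a homeobox cofactor of self-renewal, and Slc2a3, a glucose transporter, passed with the block (adjusted p = 0.0412 and 0.0475), and Ahr, the aryl hydrocarbon receptor, did not. For Myc probe 1 the nearest were Trim13 (0.0554), Eef1e1 (0.0586), Depdc1b (0.0635), Batf (0.0702) and Kbtbd8 (0.0724). These 5 shared the dip of harvest 2 in untreated cells and had changes between -0.57 and -0.49, none past the threshold. All these profiles come from the same 6 arrays. The genes were chosen for nearness over those arrays, so a shared dip and changes in the same direction follow from the choice.

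The arrays differed in ways that touch these values. The 75th percentile ranged from 794.2 to 1031 signal units and the share of detected probes from 82.8% to 90.3%. For both measures the lowest value was that of untreated harvest 3 and the highest that of treated harvest 3. In harvests 1 and 2 the 75th percentile was 901.2 and 1002 untreated and 882.7 and 1006 treated. Scaling to it thus lowered the changes of every probe in harvest 3 and hardly moved those of harvests 1 and 2. In each harvest the treated array had the higher local background (29.78 over 28.97, 28.91 over 25.19 and 28.5 over 26.04 units), and treated Mycn probe 1 lies close to it. Exact two-sided permutation tests, whose smallest possible p is 0.1 and which do not use the pairs, gave p = 0.4, 0.5 and 0.3 for these 3 measures. All 10 stem and progenitor markers, Kit, Cd34 and Ly6a among them, were well above background on all 6 arrays. So were all 4 B cell markers and all 3 T cell markers with a probe, so detection does not set a cell type apart. The 6 fibroblast or stromal markers were too. A summed level here is the log2 of the markers' summed unlogged levels, so the brightest markers lead it. For the fibroblast or stromal markers it was 4.42, 6.02 and 0.72 in untreated harvests 1, 2 and 3. In the treated ones it was 4.63, 5.97 and 0.92. Dcn (up to 5.45) and Col1a2 (up to 4.10) led it, while Postn stayed between -5.60 and -4.99. Harvest 3 thus stood apart in both groups. It did so too for the summed level of the 4 megakaryocyte markers (6.15, 5.86 and 4.37 untreated, 5.92, 5.99 and 4.16 treated), which Pf4 (up to 6.05) led. The Mycn probe 1 level of harvest 3 was the lowest of each group too. The summed level of the 4 mast cell markers was lower on the treated array of each harvest (3.91, 4.39 and 3.85 untreated against 3.51, 4.09 and 3.48 treated), led by Cpa3 (-0.37), while Cma1 had 0.14. The summed T cell level of 3 markers was lower in each harvest too (-0.079, 0.41 and 0.015 untreated against -0.16, 0.14 and -0.50 treated). This came from Cd3e (-0.45), since Cd4 (-0.0046) and Cd3g (-0.0068) hardly differed. The summed level of the stem and progenitor markers was higher (6.80, 6.63 and 6.70 against 7.12, 6.95 and 6.75). Its genes went both ways, with 0.76 for Gata2 and 0.39 for Cd34 but -0.67 for Lmo2 and -0.46 for Kit. The part of these differences in the results was not tested. Without harvest 3 the Mycn change with the block was -4.29 and did not pass (adjusted p = 0.0591 in limma). Slide 1 held untreated harvests 1 and 3 and treated harvest 1, and slide 2 the others. Within slide 1 the changes were -3.62 for Mycn probe 1 and -0.59 for Myc probe 1, and within slide 2 they were -4.41 and -0.29.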

How the data were processed

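RNA of 6 samples was labelled with Cy3 and hybridised to 1-colour Agilent arrays of design 014868, and the authors' scanner files hold spot intensity from Agilent Feature Extraction 10.1.1.1 that, per the file headers, had its background subtracted within an array and no scaling across arrays. The deposited series matrix holds log2 values that track the log2 of the median signal of a spot (r of 0.99951 to 0.99989 by array), with column medians of 7.383 to 7.417, and their scaling is not given in the sources used here. In addition, the submitters' processing notes name limma.

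From the scanner files, log2 of the processed intensity minus the array's 75th percentile was taken, averaging a probe's spots after removal of outlier spots (43 to 101 on an array). No non-control spot was saturated. Probes well above background on at least 3 of 6 arrays were kept (36384), and 39 with all spots flagged on an array were left out. limma 3.58.1 in R 4.3.3 (lmFit, eBayes) compared the groups, with Benjamini-Hochberg adjustment over 36345 probes. Symbols came from RefSeq (GRCm38.p6) by accession for 23374 probes; 17800 had none. For the lists, a gene's passing probe of highest mean was used. Same-numbered samples deviated together (r = 0.627, 0.795 and 0.577, against -0.749 to 0.0648 for others), so the number was taken as pairing them, and results of the fit with this block stand beside the others where the call differs.

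The members and lists were chosen with earlier results of these data known. Named are all member probes, list genes past the threshold, up to 2 further genes of largest change each way per list, 10 preset genes and the 5 nearest profiles; Sin3a, Mycl, Cdkn1c and the markers were named after their values were seen. Some items that the rule names are not reported here. The fit was tested on simulated data. Alternatives were normexp (offset 50, on the median spot signal in place of the mean, which was not used here), quantile normalization, the authors' matrix, other filters, slide, array weights, 1 probe per gene and left-out arrays. With 3 arrays a group, their number limits the precision.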

Additional observations from a re-analysis of the deposited data

How the results depend on the processing

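Without the block, 87 probes passed; the count was 7 with normexp, 196 with the authors' matrix, 572 with array weights and 226 with the replicate block. With the replicate block it was 864 with the matrix and 0 with normexp, where 2661 probes had an unadjusted p under 0.05 in limma. Leaving out 1 array, or 1 harvest with the block, gave 16 to 81. Normexp moved the median of all probes from -0.0087 to -0.17, so its changes stand relative to that.

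The pairing by replicate block changed 1 call among the 9 probes, Mycn probe 1 (-3.90, adjusted p = 0.0388 in limma), which also passed with the matrix and block (-2.60, adjusted p = 0.0198). With arrays or harvests left out its change ran from -4.68 to -3.37. Myc probes 1 and 3 passed with the matrix and block alone (-0.56 and -0.47). Mycn probe 2 was -0.94 and Mxi1 -0.054 within slide 1. Mnt turned to 0.0078 with the slide as a block, and with arrays left out it ran from -0.28 to 0.0079. The causes were not tested. Max was negative in all 22 settings and Mxd1 positive in 21 of 22. Mycn probe 1 in treated cells lies close to the local background, and the size of its change moved with the background correction.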

Other observations

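Cdkn1c, the p57 gene named in the title of the series and a listed MYC-repressed gene, had a change of 0.068 (SE 0.15, adjusted p = 1 in limma), with -0.045, -0.079 and 0.33 by harvest. The Lhx2 probe was well above background on all 6 arrays, at levels from -4.55 to -3.86. The lowest detected signal lay between -7.25 and -6.53 by array, so this probe was dim.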
